A study of Mus musculus with 6 samples.

Results

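Fc receptors bind the constant part of antibodies, and their mRNA was followed here in bone marrow-derived dendritic cells (BMDCs), the cells that grow from mouse bone marrow in GM-CSF and IL-4. The set holds 7 genes, taken by their symbols: the activating IgG receptors Fcgr1, Fcgr3 and Fcgr4, the inhibitory IgG receptor Fcgr2b, the shared signalling chain Fcer1g, the neonatal Fc receptor Fcgrt and the IgE receptor Fcer2a. They are 7 of 52073 named genes in the count data, and all 7 were among the 21849 that passed the filter of 50 counts summed over the libraries. Bone marrow came from C57BL/6 WT mice and from global Nfkb2-/- mice, which lack the gene for the p100/p52 subunit of noncanonical NF-kB in every cell and not in dendritic cells alone. Cells of both genotypes were grown for 9 days, with 20 ng/ml GM-CSF throughout and 10 ng/ml IL-4 in the last days, and were left unstimulated. There were 3 polyadenylated RNA-seq libraries per genotype and 6 in all, and the age of the mice and any pooling of animals are not given in the sources used here.

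Antibody-coated particles engage Fc gamma receptors on dendritic cells, which then take up the antigen and present it to T cells. The activating receptors signal through the gamma chain, whose ITAM, a pair of tyrosines phosphorylated by Src kinases, recruits the kinase Syk. The inhibitory receptor carries an ITIM instead, which recruits the lipid phosphatase SHIP-1 and dampens activation, so that the ratio of activating to inhibitory receptors sets how a dendritic cell responds to immune complexes. Fcgrt works differently: its product pairs with beta-2-microglobulin and binds IgG inside acidic endosomes. It returns IgG to the surface and helps to route immune complexes for presentation. Fcer2a encodes CD23, the low-affinity IgE receptor, best known from B cells.

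The genes of 4 members lie side by side on chromosome 1 (GRCm38, GENCODE M21) within 275.749 kb, in the order Fcgr2b (chr1:170958617-170976547, minus strand), Fcgr4 (chr1:171018920-171029761, plus strand), Fcgr3 (chr1:171051174-171064935, minus strand) and Fcer1g (chr1:171229572-171234365, minus strand). Fcgr1 lies at chr3:96282909-96293969, Fcgrt at chr7:45092990-45103851 and Fcer2a at chr8:3681737-3694175, all on the minus strand. The coding regions of Fcgr2b and Fcgr3 are closely related, and 9.58% of the 50-base windows in Fcgr3 exons also occurred in Fcgr2b, against 2.92% of Fcgr2b windows in Fcgr3. Over all other genes, on either strand, 6.95% of Fcgr2b windows were shared, with 146 genes. Whether such reads were dropped or split is not given in the sources used here, and the values of this pair are uncertain to that extent. Fcgr2b exons also overlap Gm38204 on the opposite strand, and without strand information their reads could not be separated.

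Because Nfkb2 encodes an NF-kB subunit, the 250 bases before each RefSeq start site (GRCm38.p6) were searched on both strands for the NF-kB consensus and for the letters read by other factors of these cells. All 7 genes matched the RefSeq table, with 10 start sites between them. These starts can differ from the ends of the GENCODE spans given above. The windows of Fcgr2b and Fcgr3, and some of Fcer2a, lie within the spans of their own genes. The NF-kB consensus occurred in the Fcgr3 and Fcgr4 windows, as GGGGTTTTCC and GGGGCTCTCC, and in 7.25% of 32851 promoters of the same length. The core letters GAGGAA of the myeloid factor PU.1 occurred in Fcgr1, Fcgr3 and Fcgr4, and in 23.3% of all promoters. The STAT letters of interferon signalling, TTC and GAA set 3 bases apart, occurred as TTCCCAGAA in Fcgr1 (7.02% of all promoters), and the STAT6 letters, set 4 bases apart, occurred as TTCCCAAGAA before 1 of 3 start sites of Fcer2a (5.85%). None of these letters lay in the windows of Fcgr2b, Fcer1g or Fcgrt. A match describes the letters only and shows no binding. The Fcgr3 and Fcgr4 windows are shown for the NF-kB letters and the Fcgr1 window for the STAT letters, each in the direction of transcription with those letters in capitals.
Fcgr3, chr1:171059395-171059644, minus strand, NF-kB letters from 161 bases before the start: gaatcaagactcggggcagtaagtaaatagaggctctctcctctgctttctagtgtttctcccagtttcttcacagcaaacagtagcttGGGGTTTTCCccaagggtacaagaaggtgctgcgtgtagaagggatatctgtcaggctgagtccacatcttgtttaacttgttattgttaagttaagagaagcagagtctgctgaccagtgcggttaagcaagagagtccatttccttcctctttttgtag
Fcgr4, chr1:171018676-171018925, plus strand, NF-kB letters from 152 bases before the start: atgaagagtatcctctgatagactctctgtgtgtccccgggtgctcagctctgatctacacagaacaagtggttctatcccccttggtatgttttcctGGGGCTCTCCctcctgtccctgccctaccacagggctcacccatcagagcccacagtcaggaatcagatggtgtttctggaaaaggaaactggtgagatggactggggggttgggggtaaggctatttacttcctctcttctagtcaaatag
Fcgr1, chr3:96293970-96294219, minus strand, STAT letters from 109 bases before the start: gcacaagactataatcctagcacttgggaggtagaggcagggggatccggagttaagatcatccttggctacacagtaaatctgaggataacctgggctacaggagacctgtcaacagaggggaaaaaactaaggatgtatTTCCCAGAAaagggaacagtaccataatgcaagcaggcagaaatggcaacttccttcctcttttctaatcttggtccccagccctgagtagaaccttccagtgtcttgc

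Library totals ran from 29863927 to 55623068 counts, so that 1 count corresponded to 0.0180 to 0.0335 CPM, the counts scaled to the size of the library. Levels below are CPM after TMM normalization, which scales each library so that most genes keep the same level. Nfkb2 itself was at 215, 154 and 355 CPM in WT and 44.8, 32.3 and 32.6 CPM in Nfkb2-/- replicates 1, 2 and 3, a log2 fold change of -2.72 (SE 0.33, edgeR quasi-likelihood test, adjusted p = 0.0307) in the direction that the labels give. A pair of libraries stood apart. WT replicate 3 had the lowest level of the 6 libraries for 25.0% of the genes tested, a share not taken for the other libraries. Nfkb2-/- replicate 1 had counts on 47952 genes, against 27692 to 33841 in the others. WT replicate 2 was near the other genotype. Its log2 CPM correlated at 0.9733 with Nfkb2-/- replicate 3 and 0.9693 with Nfkb2-/- replicate 2. Its correlation was 0.9727 with WT replicate 1 and 0.9488 with WT replicate 3. Tests compared 3 libraries with 3, which the study describes as independent replicates. A gene was called when its adjusted p, over all 21849 genes, was under 0.05 and its fold change over 1.2, and 248 genes or 1.14% of those tested were called (0.453% higher and 0.682% lower in Nfkb2-/- BMDCs).

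None of the 7 Fc receptor genes was called, against the 1.14% of all genes that were. By edgeR, 0 of the 7 had an unadjusted p under 0.05 (17.1% of all genes). In 0 of the 7 were the genotypes without overlap, against 24.7% of all genes. The log2 fold change of Nfkb2-/- over WT was above 0 for 6 genes and below 0 for Fcgr4, with a median of 0.61, beside 55.7% of all genes above 0 and a median over all genes of 0.08. What varied most was the WT group: 6 of the 7 genes had their lowest level in WT replicate 3, and for 6 of the 7, all but Fcer2a, the WT libraries spanned a wider range than the Nfkb2-/- libraries, as they did for 49.1% of all genes. In bulk libraries, fewer cells that carry a receptor and less receptor mRNA per cell cannot be told apart.

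Other tools and filters gave the same count of 0 members called, apart from 1. The share of all genes called was 8.60% with DESeq2, 2.23% with limma voom, 1.09% with DESeq2's size factors in edgeR and 1.13% with library totals in place of TMM. It was 2.06% with edgeR's filterByExpr, 2.82% with at least 10 counts in every library (6 members tested) and 1.27% or 5.87% when WT replicate 3 or WT replicate 2 was left out. Leaving out WT replicate 3 together with Nfkb2-/- replicate 1 gave 4.85% (6 members tested). When WT replicate 1 or any 1 of the Nfkb2-/- libraries was left out, 0 genes at all were called by edgeR, Nfkb2 included, with 2325 to 4088 genes at an unadjusted p under 0.05. With no filter beyond 1 count, 3.50% of all genes and 1 member, Fcgr1, were called (edgeR adjusted p = 0.0489).

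**Figure D1:**
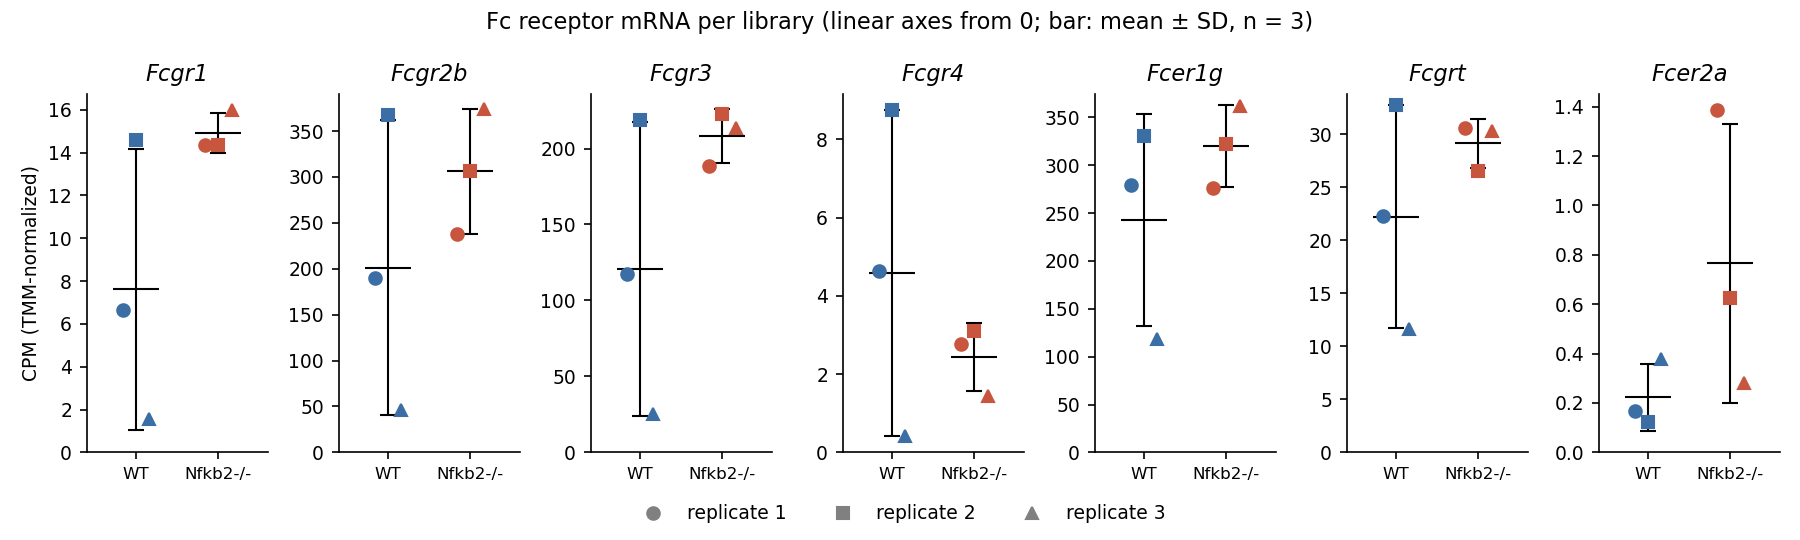
Level of the 7 Fc receptor genes in each library, in TMM-normalized CPM on linear axes that start at 0, with a point per library shaped by its replicate number and bars for the mean ± SD (n = 3 per genotype). WT replicate 3 is the lowest point for every gene except Fcer2a, and for each gene the points of the genotypes overlap.

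Among the activating receptors, Fcgr1 encodes the high-affinity IgG receptor CD64, widely used to tell macrophages and monocyte-derived cells from conventional dendritic cells. Its level was 6.67, 14.6 and 1.55 CPM in WT replicates 1, 2 and 3, and 14.4, 14.4 and 16.0 CPM in Nfkb2-/- replicates 1, 2 and 3. The Nfkb2-/- libraries were nearly level with WT replicate 2, and WT replicate 3 was the low value, so the groups overlapped. With all libraries the log2 fold change was 0.97 (SE 0.64, 95% interval -0.54 to 2.48, edgeR adjusted p = 0.494). It became 0.50 when WT replicate 3 was left out and 1.84 when WT replicate 2 was. Across WT libraries the highest level was 9.44 times the lowest, and across Nfkb2-/- libraries 1.12 times.

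Fcgr3 encodes CD16, a low-affinity receptor for IgG in immune complexes, and was the most abundant of the activating receptors. Its level was 117, 219 and 25.5 CPM in WT and 189, 223 and 213 CPM in Nfkb2-/- replicates 1, 2 and 3. As with Fcgr1, WT replicate 2 stood among the Nfkb2-/- libraries and WT replicate 3 far under them. Fcgr3 differed by 0.79 on the log2 scale (SE 0.63, 95% interval -0.68 to 2.26, edgeR adjusted p = 0.565), by 0.31 when WT replicate 3 was left out and by 1.54 when WT replicate 2 was. The WT libraries spanned 8.60-fold and the Nfkb2-/- libraries 1.18-fold.

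Fcgr4 encodes the receptor that binds IgG2a and IgG2b with intermediate affinity, and it is found on monocytes, macrophages and neutrophils. It was scarce here, at 4.63, 8.74 and 0.41 CPM in WT and 2.78, 3.10 and 1.44 CPM in Nfkb2-/- replicates 1, 2 and 3. All Nfkb2-/- libraries lay under WT replicates 1 and 2 and above WT replicate 3, which held only 12 counts, so that the groups overlapped. The log2 fold change was -0.92 (SE 0.85, 95% interval -2.92 to 1.08, edgeR adjusted p = 0.621), the only negative one of the set. Without WT replicate 3 it was -1.46 (adjusted p = 0.158), and without WT replicate 2 it was -0.07.

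Fcgr2b encodes CD32B, the only inhibitory Fc gamma receptor, which sets the threshold for activation by immune complexes. It was at 190, 367 and 46.4 CPM in WT and 238, 307 and 374 CPM in Nfkb2-/- replicates 1, 2 and 3. The WT libraries again enclosed most of the Nfkb2-/- values, with replicate 2 high and replicate 3 low. Fcgr2b had a log2 fold change of 0.61 (SE 0.62, 95% interval -0.85 to 2.06, edgeR adjusted p = 0.656). Dropping WT replicate 3 gave 0.14 and dropping WT replicate 2 gave 1.37. WT libraries spanned 7.91-fold and Nfkb2-/- libraries 1.57-fold.

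Fcer1g encodes the common gamma chain, which carries the ITAM for Fcgr1, Fcgr3 and Fcgr4 and is needed for their surface expression. It was at 279, 331 and 119 CPM in WT and 277, 322 and 362 CPM in Nfkb2-/- replicates 1, 2 and 3. Apart from WT replicate 3, the libraries of both genotypes lay close together. The log2 fold change of 0.40 (SE 0.35, 95% interval -0.43 to 1.23, edgeR adjusted p = 0.604) became 0.07 on dropping WT replicate 3 and 0.69 on dropping WT replicate 2. The WT spread of 2.78-fold was smaller than that of the 4 IgG receptors, and the Nfkb2-/- spread was 1.31-fold.

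Fcgrt, the heavy chain of the neonatal Fc receptor, was at 22.3, 32.8 and 11.7 CPM in WT and 30.6, 26.5 and 30.3 CPM in Nfkb2-/- replicates 1, 2 and 3. All Nfkb2-/- values lay between those of WT replicates 1 and 2. Fcgrt differed by 0.39 on the log2 scale (SE 0.34, 95% interval -0.41 to 1.19, edgeR adjusted p = 0.599), and the value became 0.09 on dropping WT replicate 3 and 0.78 on dropping WT replicate 2. Its levels spanned 2.81-fold in WT and 1.16-fold in Nfkb2-/- libraries.

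Fcer2a was near the limit of detection, with 7, 4 and 11 counts in WT and 47, 19 and 15 counts in Nfkb2-/- replicates 1, 2 and 3. These correspond to 0.17, 0.12 and 0.38 CPM in WT and 1.39, 0.63 and 0.28 CPM in Nfkb2-/- libraries. WT replicate 3 was above Nfkb2-/- replicate 3, so the groups overlapped, and the highest value came from Nfkb2-/- replicate 1, the library with counts on the most genes. Its log2 fold change was 1.77 (SE 0.85, 95% interval -0.22 to 3.76, edgeR adjusted p = 0.351), which became 1.002 on dropping Nfkb2-/- replicate 1 and 2.37 on dropping WT replicate 3. Fcer2a was the only member whose lowest level was not in WT replicate 3.

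**Figure D2:**
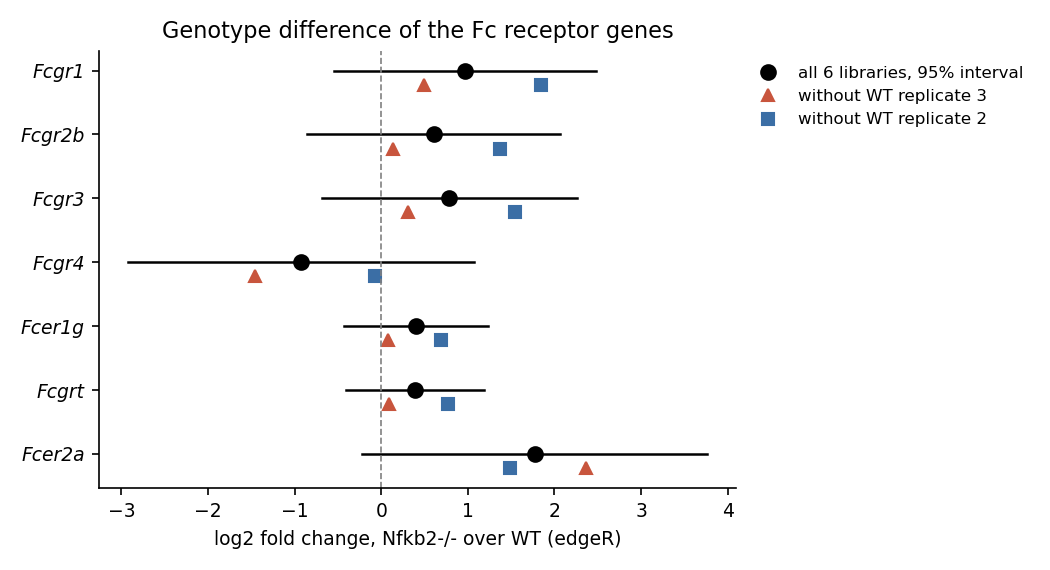
Log2 fold change of Nfkb2-/- over WT for the 7 Fc receptor genes, with all 6 libraries (circles), without WT replicate 3 (triangles) and without WT replicate 2 (squares). Bars are 95% intervals with all libraries, and each of them includes 0.

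Leaving out WT replicate 3 therefore brought the log2 fold changes of Fcgr2b, Fcer1g and Fcgrt to between 0.07 and 0.14, while leaving out WT replicate 2 raised those of the same genes to between 0.69 and 1.37. Without WT replicate 3, Fcgr1 and Fcgr3 were at 0.50 and 0.31, while Fcgr4 and Fcer2a moved further from 0, to -1.46 and 2.37. No member was called in either setting. By edgeR, 3 of the 7 members had an unadjusted p under 0.05 without WT replicate 2, and 1 without WT replicate 3. Over all genes tested in these settings, this held for 4354 of 21275 and 3512 of 21341. The 95% intervals with all libraries reached from -2.92 for Fcgr4 to 3.76 for Fcer2a, so that sizeable differences in either direction were within the error of 3 libraries per genotype. Of the narrowest, those of Fcgrt and Fcer1g, neither went above 1.23 or below -0.43 on the log2 scale.

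Levels of different genes were compared per length as CPM divided by exon length in kilobases (RPKM). In WT libraries the mean RPKM was 278 for Fcer1g, 69.5 for Fcgr3, 34.7 for Fcgr2b, 10.6 for Fcgrt, 3.66 for Fcgr4, 2.94 for Fcgr1 and 0.0720 for Fcer2a. Only Fcer1g and Fcgr3, and Fcgr1 and Fcer2a, were neighbours in this order whose ranges over the WT libraries did not overlap. In Nfkb2-/- libraries the mean RPKM was 366 for Fcer1g, 120.0 for Fcgr3, 52.9 for Fcgr2b, 13.9 for Fcgrt, 5.76 for Fcgr1, 1.94 for Fcgr4 and 0.247 for Fcer2a, and no neighbours overlapped. Fcgr1 and Fcgr4 overlapped in WT, and their order there depended on the length used, since per coding base the WT means were 6.28 for Fcgr1 and 6.15 for Fcgr4. The order of Fcgr3 and Fcgr2b also depended on it. Per coding base, the mean RPKM of Fcgr2b was 197 in WT and 300.1 in Nfkb2-/- libraries and that of Fcgr3 was 151 and 260.1, with overlapping ranges in both.

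Activating and inhibitory receptors were next compared within each library, which removes what lifts or lowers both genes alike. The log2 ratio of Fcgr1 to Fcgr2b, in RPKM plus 0.1, was -3.62, -3.47 and -3.54 in WT and -2.87, -3.23 and -3.36 in Nfkb2-/- replicates 1, 2 and 3. All Nfkb2-/- ratios were above all WT ratios, by 0.39 on average or 1.31-fold (exact permutation test, two-sided, p = 0.1, adjusted over the 4 ratios 0.4). The smallest p that 3 libraries against 3 can give is 0.1, so the threshold could not be reached by any of these ratios. With 0.1 RPKM added, WT replicate 3 was not apart for this ratio, lying between WT replicates 1 and 2. With 1 RPKM added the difference was 0.03 and the groups overlapped (exact permutation test, two-sided, p = 0.8). Fcgr1 was at 0.598 RPKM in WT replicate 3, less than the 1 RPKM added, so that setting says little about this library. With 0.1 RPKM added and each library left out in turn, the difference was 0.24 to 0.49, the lowest without Nfkb2-/- replicate 1.

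The ratio of Fcgr3 to Fcgr2b was 1.04, 0.99 and 0.86 in WT and 1.40, 1.28 and 0.93 in Nfkb2-/- replicates 1, 2 and 3 on the same log2 scale. The groups overlapped through Nfkb2-/- replicate 3, with a difference of 0.24 (exact permutation test, two-sided, p = 0.3, adjusted 0.4) that was 0.14 without Nfkb2-/- replicate 1 and 0.37 without Nfkb2-/- replicate 3. The ratio of Fcgr4 to Fcgr2b was -3.12, -3.17 and -4.24 in WT and -4.15, -4.37 and -5.70 in Nfkb2-/- replicates 1, 2 and 3. The Nfkb2-/- ratios were 0.426 times those of WT on average, and the groups overlapped only through WT replicate 3 (log2 difference -1.23, exact permutation test, two-sided, p = 0.2, adjusted 0.4). With 1 RPKM added in place of 0.1 the difference was -1.32 and the groups did not overlap (exact permutation test, two-sided, p = 0.1). Fcgr4 was at 0.329 RPKM in WT replicate 3, less than the 1 RPKM added, so the missing overlap rests on the value added. With 0.1 RPKM added and each library left out in turn, the difference ran from -1.60, without WT replicate 3, to -0.75, without Nfkb2-/- replicate 3.

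The fourth ratio set Fcgrt against B2m, which encodes its partner beta-2-microglobulin. It was -8.93, -7.88 and -10.39 in WT and -8.37, -8.37 and -8.11 in Nfkb2-/- replicates 1, 2 and 3. The Nfkb2-/- ratios lay within the WT range, which WT replicate 3 widened at its low end. The mean difference was 0.78 (exact permutation test, two-sided, p = 0.4, adjusted 0.4), and it became 0.12 on dropping WT replicate 3 and 1.38 on dropping WT replicate 2.

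**Figure D3:**
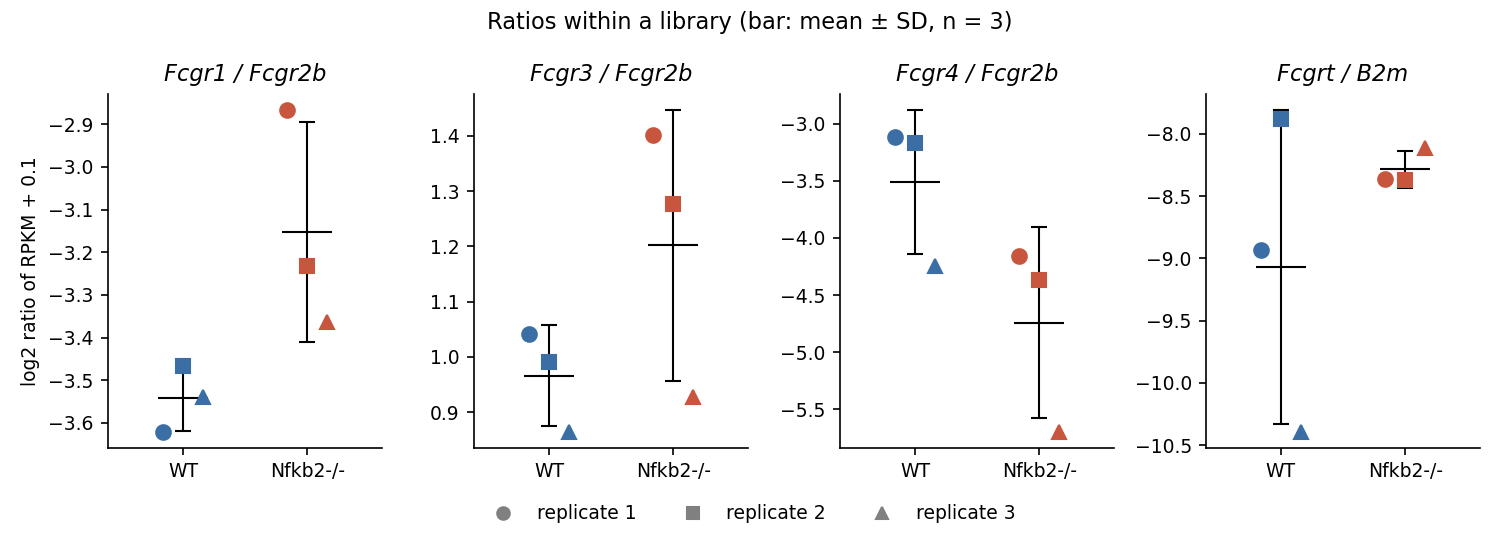
Log2 ratios within each library, in RPKM plus 0.1, of Fcgr1, Fcgr3 and Fcgr4 to Fcgr2b and of Fcgrt to B2m, with a point per library and bars for the mean ± SD (n = 3 per genotype). The axes differ between ratios and do not start at 0. With 0.1 RPKM added, the 3 Nfkb2-/- points lie clear of the 3 WT points for Fcgr1 to Fcgr2b alone, and with 1 RPKM added, not plotted, for Fcgr4 to Fcgr2b and not for Fcgr1. In WT replicate 3 both Fcgr1 and Fcgr4 were themselves under 1 RPKM.

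Profiles over the 6 libraries, as log2 CPM centred on each gene's mean, were then compared by their root mean square difference, over the 10645 genes that averaged 5 CPM or more. Fcgr1, Fcgr2b and Fcgr3 had like profiles although Fcgr1 lies on another chromosome. Fcgr3 and Fcgr1 differed by 0.145, and only 2 genes were nearer to Fcgr3 than Fcgr1 was. Fcgr2b and Fcgr3 differed by 0.191, and the median difference of all genes from these 3 genes was between 1.06 and 1.22. Fcgr1 and Fcgr2b differed by 0.274, with Fcgr2b at rank 53 from Fcgr1 and Fcgr1 at rank 69 from Fcgr2b. The nearest genes were Srgap3 and Ppargc1b for Fcgr1 (0.0951 and 0.108), Fli1 and Gm1966 for Fcgr2b (0.105 and 0.133), and Lrmp and F10 for Fcgr3 (0.118 each). All these points share the same 6 libraries and the low value of WT replicate 3.

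Fcer1g and Fcgrt differed by 0.172, beside a median difference of 0.601 from Fcer1g and 0.589 from Fcgrt over all genes. Many genes were nearer to each, since Fcgrt stood at rank 66 from Fcer1g and Fcer1g at rank 52 from Fcgrt. The gamma chain was 0.604 from Fcgr3 and 0.690 from Fcgr1, the receptors that signal through it, and its level in WT replicate 3 was less far below the rest. The mean of WT replicates 1 and 2 was 2.57 times the level in WT replicate 3 for Fcer1g and 2.36 times for Fcgrt, but 6.00 to 6.87 times for Fcgr1, Fcgr2b and Fcgr3 and 16.2 times for Fcgr4. The nearest genes were Unc93b1 and Adcy7 for Fcer1g (0.0621 and 0.0787), and Dennd2a and Gm49759 for Fcgrt (0.0808 and 0.0947). Fcgr4 and Fcer2a, under 5 CPM, were not compared.

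Macrophage markers shared the low value of WT replicate 3, while most of those tested had a log2 fold change below 0. Markers such as Mrc1, Csf1r and C1qb, 12 in the list, had a summed level of 1079, 1253 and 188 CPM in WT and 713, 767 and 917 CPM in Nfkb2-/- replicates 1, 2 and 3. As for the receptors, WT replicate 3 was lowest, and it was so for 10 of the 11 markers tested, while Vsig4 was at 0 in every WT library. None of the 11 was called by edgeR, with 1 at an unadjusted p under 0.05. Their median log2 fold change was -0.12, with 4 above 0 and 7 below, beside 0.61 for the receptors. With WT replicate 3 left out, Csf1r and Mrc1, the 2 most abundant of the list, had log2 fold changes of -0.86 and -0.61. The other markers are not given for this setting. The part of macrophage markers in the receptor levels was not tested.

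The labelled cell type was checked against its markers, which were present in every library. The 13 dendritic cell markers summed to 10688, 7636 and 15093 CPM in WT and 9680, 9408 and 10454 CPM in Nfkb2-/- replicates 1, 2 and 3. Here the sum was highest in WT replicate 3, opposite to the receptors, although 2 of the 13 markers, Itgax and Cd209a, were lowest there. Ccr7, which guides mature dendritic cells to lymph nodes, was at 1149, 640 and 1897 CPM in WT and 673, 611 and 596 CPM in Nfkb2-/- replicates 1, 2 and 3. Itgax, which encodes CD11c, rose from 160, 277 and 123 CPM in WT to 745, 769 and 716 CPM in Nfkb2-/- libraries (log2 fold change 1.99, edgeR adjusted p = 0.0414). No other marker of the 13 was called. The log2 fold change was above 0 for 6 and below 0 for 7, with a median of -0.17. By edgeR, 6 had an unadjusted p under 0.05 (17.1% of all genes). Besides Itgax, Cd86 was higher without overlap (log2 fold change 0.58). Zbtb46, Cd83 and Fscn1 were lower without overlap (-0.54, -1.12 and -1.49). The share of all genes without overlap was 24.7%. The part of maturation in the receptor levels was not tested.

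**Figure D4:**
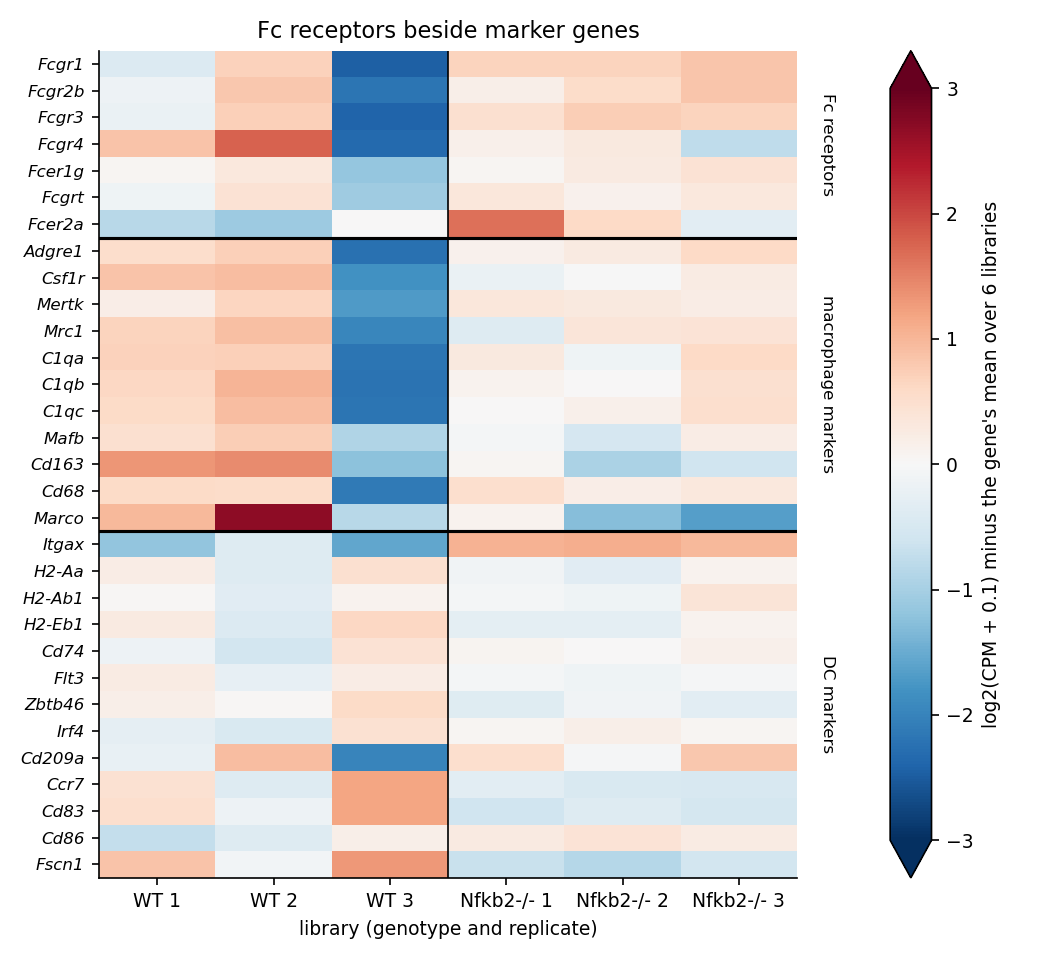
Level of each Fc receptor gene, tested macrophage marker and dendritic cell (DC) marker in the 6 libraries, as log2(CPM + 0.1) minus the gene's own mean, with red above and blue below that mean. WT replicate 3 is the darkest blue column for most Fc receptor genes and macrophage markers, and Ccr7, Cd83 and Fscn1 are at their reddest there.

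Granulocyte markers summed to 88.8 to 259 CPM in WT and 195 to 217 CPM in Nfkb2-/- libraries, B cell markers to 5.61 to 27.5 and 15.9 to 23.0 CPM, and natural killer and T cell markers to 59.7 to 245 and 40.7 to 76.4 CPM. Of these lists 0 genes were called by edgeR, with 5 of 11, 0 of 7 and 2 of 4 tested genes at an unadjusted p under 0.05 (17.1% of all genes). Under the similar sums, 3 of the 11 tested granulocyte markers had log2 fold changes above 0 and 8 below (55.7% of all genes above 0). Their median was -0.24. Cxcr2, a chemokine receptor of neutrophils, was at 4.41, 11.97 and 1.31 CPM in WT and 93.1, 91.5 and 65.1 CPM in Nfkb2-/- replicates 1, 2 and 3, without overlap (log2 fold change 3.82, edgeR adjusted p = 0.0568, limma voom adjusted p = 0.0213). Ngp, a neutrophil granule protein, was at 70.7, 80.5 and 18.0 CPM in WT and 13.8, 21.6 and 13.1 CPM in Nfkb2-/- replicates 1, 2 and 3, overlapping through WT replicate 3 (log2 fold change -1.81, edgeR adjusted p = 0.147). Their part in the receptor levels was not tested. Of the 7 tested B cell markers, 5 had log2 fold changes above 0 and 2 below, with a median of 0.72. Only Cr2 among them was without overlap, and it was higher in Nfkb2-/- libraries (edgeR adjusted p = 0.331). The B cell markers Cd79b and Ms4a1 were too low to be tested. The part of B cells in the few counts of Fcer2a was not tested.

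Of 14 other genes of the Fc receptor family or its partners, 10 could be tested and 0 were called by edgeR (2 with an unadjusted p under 0.05), and the median log2 fold change was 0.61 (0.08 over all genes). In 5 of the 10 the genotypes did not overlap, against 24.7% of all genes. Only 2 of the 10 were lowest in WT replicate 3, against 6 of the 7 receptors above. Fcer1a, the IgE-binding chain of the high-affinity IgE receptor, and Fcamr, Pigr and Fcrl6 had too few counts to be tested.

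Trim21, the cytosolic receptor that binds antibodies on incoming viruses, was at 13.9, 14.7 and 15.2 CPM in WT and 19.7, 21.1 and 18.0 CPM in Nfkb2-/- replicates 1, 2 and 3. The genotypes did not overlap, and the log2 fold change of 0.42 missed the threshold (SE 0.15, edgeR adjusted p = 0.207). Fcrlb, an intracellular Fc receptor-like protein of B cells, was at 0.14, 0.31 and 0.21 CPM in WT and 1.09, 0.86 and 0.80 CPM in Nfkb2-/- replicates 1, 2 and 3. It did not overlap either (log2 fold change 2.06, SE 0.60, edgeR adjusted p = 0.149), and it was called by DESeq2 (adjusted p = 0.0218). Its counts were only 6 to 10 in WT and 26 to 43 in Nfkb2-/- libraries.

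Fcrls, an Fc receptor-like gene of myeloid cells, was at 61.6, 114 and 9.26 CPM in WT and 86.5, 101 and 133 CPM in Nfkb2-/- replicates 1, 2 and 3. Its WT libraries took the order of the IgG receptors, with replicate 3 lowest and the groups overlapping (log2 fold change 0.80, edgeR adjusted p = 0.613). Ms4a2, the beta chain of the high-affinity IgE receptor, was at 1.42, 1.32 and 1.03 CPM in WT and 0.53, 0.20 and 0.95 CPM in Nfkb2-/- replicates 1, 2 and 3, without overlap (log2 fold change -1.14, edgeR adjusted p = 0.397). B2m was at 3178 to 6529 CPM in WT and 3448 to 4165 CPM in Nfkb2-/- libraries, with a log2 fold change of -0.34 (edgeR adjusted p = 0.594). Fcmr, the IgM receptor, and Fcrla did not overlap, but held at most 20 counts in a WT library. Their log2 fold changes were 1.97 and 1.42 (edgeR adjusted p = 0.341 and 0.538). Fcrl1, Fcrl5 and Fcgbp overlapped, with log2 fold changes of -0.07, 0.31 and 1.99, and most counts of Fcgbp came from Nfkb2-/- replicate 1.

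Downstream of the gamma chain, 1 of 24 ITAM signalling genes was called higher in Nfkb2-/- BMDCs and 0 lower, beside 0.453% and 0.682% of all genes. Their median log2 fold change was 0.09, and that of all genes 0.08. The called gene was Prkcd, protein kinase C delta, at 202, 313 and 292 CPM in WT and 699, 691 and 619 CPM in Nfkb2-/- replicates 1, 2 and 3. All Nfkb2-/- libraries were above all WT libraries, with means of 269 ± 59.0 and 669 ± 44.0 CPM (SD, n = 3 per genotype) and a log2 fold change of 1.32 (SE 0.20, edgeR adjusted p = 0.0420). The call was lost without WT replicate 3 (adjusted p = 0.0512), without WT replicate 1 (0.169), and without Nfkb2-/- replicate 1, 2 or 3 (0.0900, 0.217 and 0.172).

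Syk, the kinase that docks on the phosphorylated ITAM, was at 663, 673 and 671 CPM in WT and 408, 427 and 399 CPM in Nfkb2-/- replicates 1, 2 and 3. The libraries of each genotype lay close together and clear of the other genotype. Its log2 fold change of -0.70 missed the threshold (SE 0.14, edgeR adjusted p = 0.0666), and DESeq2 called it. The most abundant genes of the list beside Syk were Malt1, an adaptor protease, and Pik3r1, a regulatory subunit of PI3-kinase, with log2 fold changes of 0.16 and -0.65 (edgeR adjusted p = 0.769 and 0.147). Unlike the receptors, neither Syk nor Prkcd was lowest in WT replicate 3.

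Of 15 genes that act with the inhibitory receptor or restrain ITAM signals, edgeR called 0, beside 1.14% of all genes, and 4 had an unadjusted p under 0.05 (17.1% of all genes). Their median log2 fold change was 0.06. Cbl and Cblb, ubiquitin ligases that mark active receptors for degradation, had log2 fold changes of 0.06 and -0.77 (edgeR adjusted p = 0.875 and 0.171). Of 10 other receptors that use the gamma chain, 8 were tested and 0 called (1 with an unadjusted p under 0.05), with a median of -0.31 and 6 of the 8 lowest in WT replicate 3 (25.0% of all genes). Among them Clec4n, which encodes the fungal receptor Dectin-2, was at 276, 334 and 85.1 CPM in WT and 326, 559 and 598 CPM in Nfkb2-/- replicates 1, 2 and 3. It overlapped through Nfkb2-/- replicate 1 (log2 fold change 1.09, edgeR adjusted p = 0.314). Clec4d and Cd300c2, also lowest in WT replicate 3, had log2 fold changes of -0.23 and -0.71 (edgeR adjusted p = 0.905 and 0.619).

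In the machinery that engulfs antibody-coated particles, 1 of 24 genes was called higher and 0 lower (0.453% and 0.682% of all genes), and the median log2 fold change was 0.06. The called gene was Elmo1, which with Dock proteins activates Rac, at 93.5, 121 and 79.6 CPM in WT and 220, 233 and 218 CPM in Nfkb2-/- replicates 1, 2 and 3. The genotypes did not overlap, with means of 97.9 ± 20.9 and 224 ± 8.04 CPM (SD, n = 3 per genotype) and a log2 fold change of 1.19 (SE 0.18, edgeR adjusted p = 0.0420). The call was lost without WT replicate 1 (adjusted p = 0.202), without Nfkb2-/- replicate 1, 2 or 3 (0.0898, 0.217 and 0.177) and with library totals in place of TMM (0.0504). The most abundant genes of this list, Nckap1l, Cdc42 and Actr2, which drive actin assembly, had log2 fold changes of 0.24, -0.03 and 0.23 (edgeR adjusted p = 0.664, 0.957 and 0.673).

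**Figure D5:**
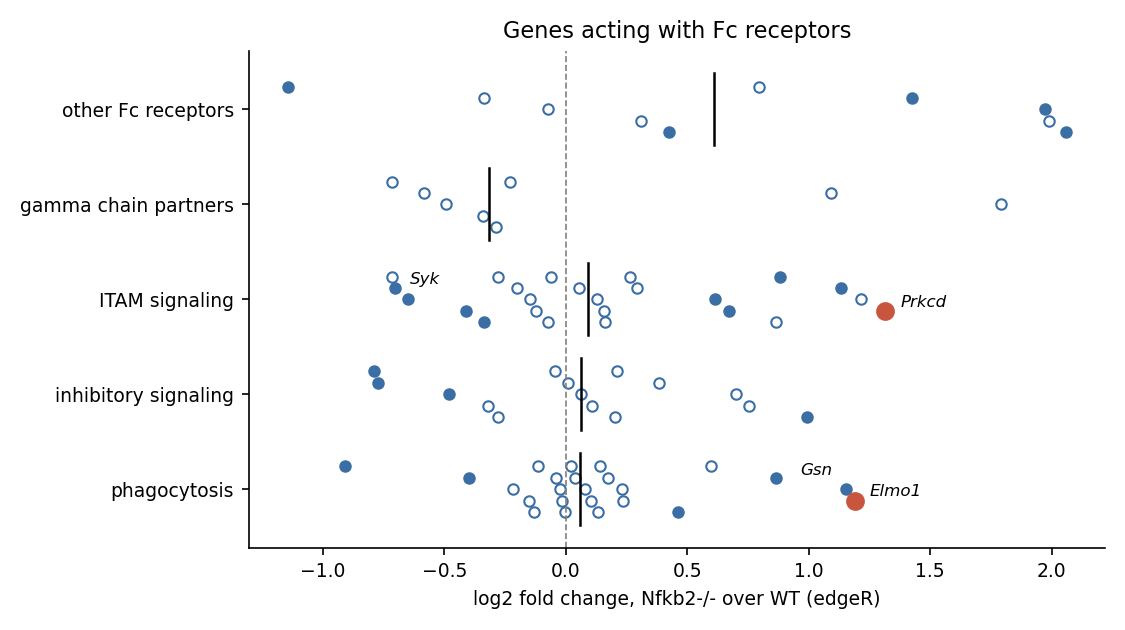
Log2 fold change of Nfkb2-/- over WT for each tested gene of the 5 lists around the Fc receptors, with open circles where the genotypes overlap, filled circles where they do not, red for called genes and a vertical line at the median of each list. Prkcd and Elmo1 are the only called genes, and Syk and Gsn, which were not called, are named beside them.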

How the data were processed

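The authors deposited raw counts per Ensembl gene for each of 6 libraries, 3 WT and 3 Nfkb2-/-, grouped here by their labels. The submitters' processing notes name HISAT2 and GRCm38 (mm10), while the counting tool, annotation and strand setting are not given in the sources used here. A joined table with the same values was not used. The members and gene lists were chosen with earlier results of these data known.

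Genes named in GENCODE M21 with at least 50 counts in all were tested with edgeR 4.0.16 (TMM, quasi-likelihood test, no covariates, R 4.3.3), with Benjamini-Hochberg adjustment over 21849 genes. IDs without a name held 1.01% to 1.75% of the counts and were left out. An SE is the log2 fold change divided by the square root of F. RPKM used the union of exons or the coding length, and ratios within a library were taken after adding 0.1 RPKM (1 RPKM as an alternative) and compared by exact permutation. Alternatives were DESeq2 1.42.0, limma voom 3.58.1, other normalizations and filters, a replicate block and each library left out. Scripts were tested on simulated data.

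Named genes were all 7 members, list genes that were called, other Fc receptor genes with 50 counts, the 3 most abundant genes of each signalling list, and the 2 nearest profiles. A gene that this rule names in the inhibitory list is not reported here. Syk, counted among the most abundant, is described further after its values were seen. So are Fcrlb under DESeq2, Ccr7, Zbtb46, Cd83, Cd86, Fscn1, Cxcr2, Ngp, Gata2, Vsig4, Cr2, Cd79b, Ms4a1 and the genes named under alternatives. Depth was 29863927 to 55623068 counts per library, where counting error alone leaves levels of a few counts imprecise. The study describes the replicates as independent. The deviations of same-numbered libraries did not settle whether these were pairs, and the main test did not pair them.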

Additional observations from a re-analysis of the deposited data

How the results depend on the processing

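No Fc receptor gene changed direction under any alternative. The count of 0 called members became 1 with no filter beyond 1 count (Fcgr1, adjusted p = 0.0489 by edgeR, range over all settings 0.0489 to 0.712), and stayed 0 to 0 with each library left out. Over all genes, the 248 calls became 1878 with DESeq2, 488 with limma voom, 397 with filterByExpr, 1625 with no filter beyond 1 count, 459 with at least 10 counts in every library and 808 at an adjusted p under 0.10. With each library left out they were 0 to 1248: 1248 without WT replicate 2, 270 without WT replicate 3 and 0 without WT replicate 1 or any 1 of the Nfkb2-/- libraries (2325 to 4088 genes at an unadjusted p under 0.05). Without both WT replicate 3 and Nfkb2-/- replicate 1, an alternative chosen after seeing the data, there were 908.

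ITAM signalling calls, 1 in the report, became 6 with DESeq2, 2 with voom, with no filter, with at least 10 counts, without both libraries and at 0.10, and 0 to 3 with each library left out (3 without WT replicate 2). Phagocytosis calls, also 1, became 4 with DESeq2, 0 with library totals, 2 under those same other settings, and 0 to 4 with each library left out (4 without WT replicate 2). Among inhibitory genes, 0 became 1 with DESeq2 (Cblb) and 2 with no filter (Dok1 and Dok2), and was 0 to 2 with each library left out (2 without WT replicate 2). Other Fc receptor calls were 1 with DESeq2 (Fcrlb) and 0 to 0 with each library left out. Gamma chain partners gave 1 with no filter (Clec4n), 4 without both libraries and 0 to 1 with each left out (1 without WT replicate 3). That 1 was Cd300c2, lower in Nfkb2-/- libraries (log2 fold change -1.21). Of the 4, Clec4n was higher (0.91), and Clec4d, Cd300c2 and Clec4a3 were lower (-0.55, -1.13 and -0.91).

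To look for pairs, each library was taken as its log2 CPM minus the mean of its genotype. These deviations correlated at 0.262, 0.148 and 0.0224 between same-numbered libraries. The other combinations of a WT and an Nfkb2-/- library gave -0.237 to 0.164. For WT replicate 2, the largest correlation of deviations was with Nfkb2-/- replicate 3. These values do not settle whether the numbers are pairs, and the main test did not use them as such. The replicate block gave 0 called genes of 21849 (edgeR, 3331 at an unadjusted p under 0.05) and 0 in each list. With 3 libraries per genotype and a WT group spanning up to 21.2-fold for Fcgr4, only large differences could be called.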

Other observations

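Mast cells and basophils carry Fcer1g with the high-affinity IgE receptor. Their markers summed to 46.8 to 57.3 CPM in WT and 54.5 to 58.0 CPM in Nfkb2-/- libraries, of which Kit, the stem cell factor receptor, made up 37.2 to 50.5 CPM. Within the list, Cpa3, a mast cell protease, fell from 10.8, 6.31 and 6.85 CPM in WT to 1.86, 2.34 and 2.49 CPM in Nfkb2-/- libraries (log2 fold change -1.84, edgeR adjusted p = 0.0413). It was the only gene called of the 8 tested, Gata2 was at 0.69 to 1.91 CPM in WT and 3.22 to 4.05 CPM in Nfkb2-/- libraries (log2 fold change 1.47, edgeR adjusted p = 0.119), and Tpsab1 was at 0 in every WT library.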
